A study of Mus musculus with 9 samples.

Results

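The 9 genes described here encode voltage-gated potassium channels that repolarize the ventricular myocyte, together with the subunits that bind them: *Kcnd2*, *Kcnd3*, *Kcnip2*, *Kcna4*, *Kcna5*, *Kcnv2*, *Kcnab1*, *Kcnab2* and *Kcne1*. They are 9 of the 52636 genes counted in bulk RNA of the mouse left ventricle, and 9 of the 9 passed the filter on low counts that left 16322 genes to test. The genes were selected by name with earlier results of these data known. The libraries set side by side were chosen by their level of *Vdac2*, so every difference between those libraries is a description and carries no test.

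The study deleted *Vdac2*, which encodes a pore of the outer mitochondrial membrane, from the mouse heart, and total RNA of the left ventricle was sequenced at 16 weeks of age to see which genes differ. Knockout (KO) mice carried Vdac2 flox alleles and a Cre recombinase driven by the αMHC promoter, which acts in cardiac myocytes, so that other cells of the ventricle keep the gene. Wild-type (WT) mice were littermates with either the flox allele or Cre alone, and both groups were on the C57BL6J background. The deposited labels put libraries 1 to 5 in WT and libraries 6 to 9 in KO. The study states its sample sizes in mice, but the labels do not tie a library to an animal, so the p-values are those of the spread between these libraries.

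Ventricular repolarization depends on outward potassium currents that open on depolarization. In the mouse, a large and fast transient outward current is carried by Kv4 pores and shortens the action potential, and slower currents are carried by other Kv pores. Accessory subunits set how many of these channels reach the membrane and how quickly they open and close, and loss of transient outward current is a known feature of the failing heart.

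Promoter windows were matched by symbol in RefSeq (GRCm38.p6), each running from 250 bases before to 50 bases after an annotated start, and 7 of the 9 genes had an entry, with 11 windows in all. 4 windows are shown because their genes carry the results below: the subunit farthest below the other libraries in library 3 (*Kcnip2*), its pore partner (*Kcnd2*), and the genes whose level was higher with little *Vdac2* within each label (*Kcna4* and *Kcnab2*). For *Kcnab2*, which has several annotated starts, the window with the most matches is shown. Each is written 5′ to 3′ on the strand of the gene, with capitals marking matches on either strand to 7 short motifs.
Kcnip2, chr19:45816014-45816313, minus strand: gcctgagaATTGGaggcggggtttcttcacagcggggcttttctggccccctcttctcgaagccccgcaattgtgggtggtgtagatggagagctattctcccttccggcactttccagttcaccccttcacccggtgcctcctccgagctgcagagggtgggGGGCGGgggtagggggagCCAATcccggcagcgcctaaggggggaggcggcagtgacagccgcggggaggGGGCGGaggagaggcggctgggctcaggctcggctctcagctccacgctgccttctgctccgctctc
Kcnd2, chr6:21215096-21215395, plus strand: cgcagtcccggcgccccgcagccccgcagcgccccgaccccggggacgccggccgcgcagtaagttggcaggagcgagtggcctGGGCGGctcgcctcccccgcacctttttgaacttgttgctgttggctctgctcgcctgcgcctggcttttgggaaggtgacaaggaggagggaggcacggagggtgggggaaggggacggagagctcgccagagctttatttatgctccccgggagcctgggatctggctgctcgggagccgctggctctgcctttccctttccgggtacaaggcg
Kcna4, chr2:107290339-107290638, plus strand: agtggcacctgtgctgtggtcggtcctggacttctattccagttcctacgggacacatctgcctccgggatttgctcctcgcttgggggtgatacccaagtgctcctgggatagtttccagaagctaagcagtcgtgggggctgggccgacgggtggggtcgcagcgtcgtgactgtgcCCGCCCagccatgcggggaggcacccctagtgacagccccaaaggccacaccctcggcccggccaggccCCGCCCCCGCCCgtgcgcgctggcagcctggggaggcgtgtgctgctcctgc
Kcnab2, chr4:152477500-152477799, minus strand: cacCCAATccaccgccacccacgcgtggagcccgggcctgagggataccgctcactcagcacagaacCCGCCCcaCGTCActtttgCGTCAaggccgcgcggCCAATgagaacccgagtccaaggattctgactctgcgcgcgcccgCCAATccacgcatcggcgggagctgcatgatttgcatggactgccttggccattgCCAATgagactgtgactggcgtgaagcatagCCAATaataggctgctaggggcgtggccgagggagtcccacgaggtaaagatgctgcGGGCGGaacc

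The TATA box was searched as TATAAA, the CCAAT box as CCAAT and the GC box as GGGCGG. The GATA motif was read as AGATAA, the E box as CACGTG, the M-CAT motif as CATTCC and the partial cAMP response element as TGACG. The E box reads the same on both strands, and no motif contains another. The *Kcnip2* window held 2 CCAAT boxes and 2 GC boxes, the *Kcnd2* window 1 GC box and the *Kcna4* window 3 GC boxes. The *Kcnab2* window shown held 5 CCAAT boxes, 2 GC boxes and 2 partial cAMP response elements. Its other windows, from 152448806 and from 152452896, held none of the 7 motifs, at a GC content of 55.0% and 56.0%. Of 32851 mouse windows of the same length, 37.4% hold a CCAAT box, 35.7% a GC box and 20.8% a partial cAMP response element, so each is common. The TATA box, GATA motif, E box and M-CAT motif are held by 13.6%, 11.2%, 7.15% and 14.7% of windows and had no match in these 4. *Kcna5* had 1 M-CAT match in its window and *Kcnd3* had none of the 7 motifs. The GC content was 67.0% for *Kcnip2*, 68.7% for *Kcnd2*, 67.7% for *Kcna4* and 62.7% for *Kcnab2*, against a median of 52.7% over all windows. A match is a description of the letters, and binding was not measured.

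Between 27345052 and 44673988 reads were counted per library, with a median of 28686212 for the label WT and 39083476 for the label KO. The level of 3 counts, under which a gene was read as not detected, lay between 0.0693 and 0.114 CPM (counts scaled to a total of 1e+06 per library) and covers counting error only. No pair of libraries of a label agreed within counting noise, since chi-square over its degrees of freedom was at least 7.39. Among the libraries labelled WT, *Vdac2* read 20.2 CPM in library 1, 366.5 in library 2, 58.5 in library 3, 365 in library 4 and 21.3 in library 5. Among those labelled KO it read 384 CPM in library 6, 20.5 in library 7, 421 in library 8 and 19.1 in library 9. The level went against the label in libraries 1, 3, 5, 6 and 8. No library was given another label. Libraries 1, 5, 7 and 9, with *Vdac2* under 100 CPM, are called the Vdac2-low libraries below, and libraries 2, 4, 6 and 8, with *Vdac2* over 300 CPM, the Vdac2-high libraries. The highest of the former stood at 21.3 CPM and the lowest of the latter at 365 CPM. Each holds 2 libraries of either label. Library 3, labelled WT, also lay under 100 CPM but stands apart from the other 8 in most genes, and its values are given separately. Sequencing lane coincided with the label, and so did the sex chromosome genes, *Xist* reaching 0.152 CPM at most under the label WT and never less than 335 CPM under the label KO. Label, lane and sex cannot be told apart.

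Myocyte markers were abundant in every library. The summed level of *Myh6*, *Tnnt2*, *Tnni3*, *Actc1*, *Myl2* and *Ryr2* was 42440 to 49124 CPM in the Vdac2-low libraries, 50699 to 60276 CPM in the Vdac2-high libraries and 12547 CPM in library 3. The sums did not overlap, although each of the 6 genes did. Of the 4 atrial markers, *Sln* and *Bmp10* did not pass the filter on low counts, *Sln* having under 3 counts in every library. *Myl4* was higher without overlap in the Vdac2-low libraries (1.871 to 2.425 CPM against 1.589 to 1.865 CPM), where 7.16% of all tested genes were. *Myl7* overlapped, at 0.115 to 1.08 CPM in the 8 libraries. In library 3 *Myl4* and *Myl7* lay above the other 8, at 2.99 and 1.13 CPM, as 37.7% of all tested genes did. The macrophage markers *Adgre1*, *Csf1r*, *Cd68* and *C1qa* summed to 179 to 246 CPM in the Vdac2-low libraries, 120 to 173 CPM in the Vdac2-high libraries and 456 CPM in library 3, and 2 of these 4 genes (*Adgre1* and *Cd68*) did not overlap. The fibroblast markers *Col1a1*, *Dcn*, *Pdgfra*, *Tcf21* and *Lum* summed to 1032 to 1208 CPM, 795 to 1062 CPM and 1447 CPM in the same order. Of these 5 genes only *Tcf21* did not overlap, at 5.81 to 7.43 CPM and 4.30 to 5.06 CPM. *Dcn*, *Tcf21* and *Lum* were higher without overlap in the Vdac2-low libraries of each label, as 11.3% of all tested genes were. In bulk RNA, fewer cells of a type and less RNA per cell cannot be told apart.

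Levels of different genes were compared per kilobase of exon, as RPKM (CPM divided by the length of the gene's exons in kilobases), over the 8 libraries without library 3. *Kcnip2* was the most abundant at 36.5 ± 4.18 RPKM (SD, n = 8), followed by *Kcnd2* at 10.2 ± 1.95 RPKM and *Kcna5* at 5.39 ± 0.827 RPKM. *Kcnv2* stood at 3.42 ± 1.25 RPKM, *Kcnd3* at 2.54 ± 0.379 RPKM, *Kcne1* at 2.23 ± 0.738 RPKM and *Kcna4* at 1.40 ± 0.350 RPKM. The order of *Kcnv2* and *Kcnd3* differed by *Vdac2* level, at 2.31 and 2.37 RPKM in the Vdac2-low libraries and 4.53 and 2.71 RPKM in the Vdac2-high libraries. By label, *Kcne1* averaged 9.01 CPM in KO and 5.34 CPM in WT without library 3, and *Kcnd3* 22.1 and 26.6 CPM. Per kilobase, the order of *Kcnd3* and *Kcne1* therefore holds for the pooled labels and not within the label KO. *Kcnab2* was at 0.390 ± 0.129 RPKM and *Kcnab1* at 0.121 ± 0.0242 RPKM. The libraries of *Kcnip2* (29.6 to 42.3 RPKM) and *Kcnd2* (7.12 to 13.7 RPKM) did not overlap, nor did those of *Kcnd2* and *Kcna5* (3.96 to 6.51 RPKM), of *Kcna4* and *Kcnab2*, or of *Kcnab2* and *Kcnab1*. Neighbours from *Kcna5* through *Kcnv2*, *Kcnd3* and *Kcne1* to *Kcna4* overlapped in their ranges.

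**Figure D1:**
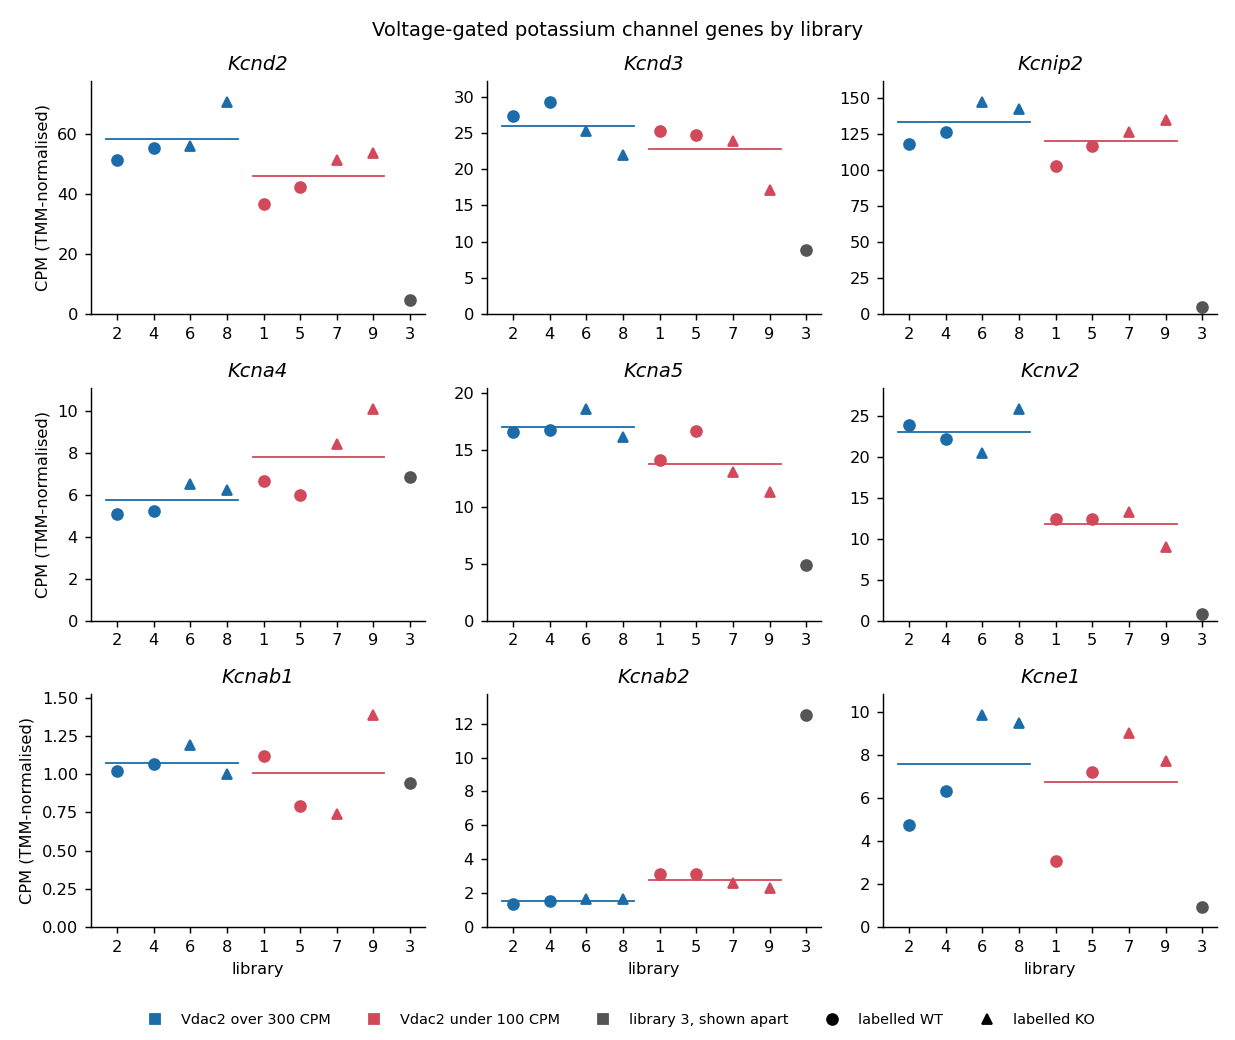
The level of each of the 9 genes (CPM after TMM normalisation, vertical axis from 0) in each of the 9 libraries (horizontal axis), coloured by *Vdac2* level and shaped by label, with lines at the mean of 4 libraries. The blue and red points of *Kcnv2* and *Kcnab2* do not overlap, and library 3 lies below the other 8 for 6 genes.

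Across the Vdac2-low and Vdac2-high libraries, 1 of the 9 genes (*Kcnv2*) was lower in all 4 Vdac2-low libraries than in any Vdac2-high library, where 4.93% of all tested genes were. 1 gene (*Kcnab2*) was higher without overlap, where 7.16% of all tested genes were. The other 7 overlapped. The median log2 ratio of the 9 was -0.17, against 0.0025 for all tested genes. Within each label, where 2 libraries of low *Vdac2* can be set beside 2 of high *Vdac2* from the same lane, *Kcnd2*, *Kcnip2* and *Kcnv2* were lower without overlap in both labels, 3 of 9 genes, and *Kcna4* and *Kcnab2* were higher in both, 2 of 9. Over all tested genes 8.58% were lower in both labels and 11.3% higher. Within the label WT alone, 4 of the 9 were lower without overlap and 2 higher, where 23.3% and 24.5% of all tested genes were. Within the label KO alone, 5 were lower and 2 higher, beside 17.1% and 20.7% of all tested genes. Since the genes were chosen with these values in view, nothing is read from these counts.

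**Figure D2:**
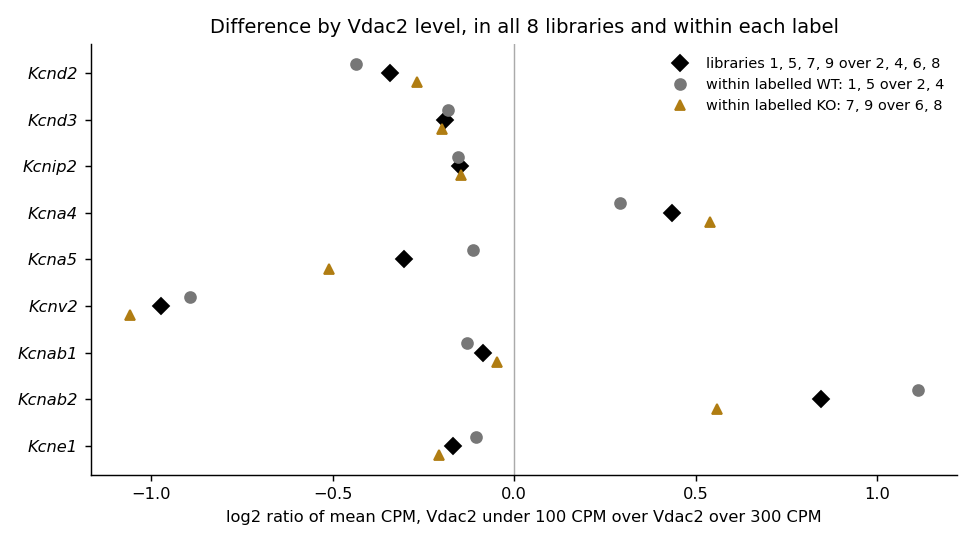
The log2 ratio of the mean CPM of the Vdac2-low over the Vdac2-high libraries (horizontal axis) for each gene, over all 8 libraries (diamonds) and within the libraries labelled WT (circles) and KO (triangles). *Kcnv2* lies farthest to the left at -0.97 and *Kcnab2* farthest to the right at 0.84, and each gene has the same sign within both labels.

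*Kcnd2* (ENSMUSG00000060882, chromosome 6 of GRCm38 from 21215503 to 21729805, plus strand) encodes Kv4.2, a pore of the fast transient outward current. Its level was 36.7, 42.5, 51.54 and 53.9 CPM in libraries 1, 5, 7 and 9, and 51.45, 55.5, 56.2 and 70.7 CPM in libraries 2, 4, 6 and 8. The 2 sets just overlapped, library 2 being under libraries 7 and 9, and *Kcnd2* was lower in the Vdac2-low libraries of each label. Means were 46.1 ± 7.99 CPM and 58.5 ± 8.43 CPM (SD, n = 4 each), a log2 ratio of -0.34 over all 8 libraries, -0.43 within the label WT and -0.27 within the label KO. Scaled to the cardiomyocyte markers *Tnnt2*, *Tnni3*, *Actc1* and *Ryr2* in place of the library total, it was -0.15. In library 3 it was at 4.56 CPM, 11.5-fold under the mean of the other 8. Its span overlaps that of *Gm42583* on the same strand, which reached 987 counts in a library. Whether their reads were shared was not tested.

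*Kcnd3* (ENSMUSG00000040896, chromosome 3 from 105452330 to 105674002, plus strand) encodes Kv4.3, the other Kv4 pore of the ventricle. It stood at 25.2, 24.7, 24.0 and 17.2 CPM in libraries 1, 5, 7 and 9, and at 27.4, 29.2, 25.3 and 21.9 CPM in libraries 2, 4, 6 and 8. The ranges overlapped, and they did so within the label KO as well. The log2 ratio was -0.19, with 22.8 ± 3.76 CPM against 26.0 ± 3.14 CPM (SD, n = 4 each). It was -0.076 without library 9 and turned to 0.0097 when scaled to the 4 cardiomyocyte markers. Library 3 held 8.90 CPM, 2.74-fold under the other 8. Its span overlaps *Gm43847* on the same strand, which reached 84 counts in a library, and the antisense gene *Kcnd3os*, which reached 33.

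*Kcna4* (ENSMUSG00000042604, chromosome 2 from 107290639 to 107298502, plus strand) encodes Kv1.4, which carries the slowly recovering transient outward current. Libraries 1, 5, 7 and 9 gave 6.63, 5.98, 8.41 and 10.1 CPM, and libraries 2, 4, 6 and 8 gave 5.08, 5.21, 6.50 and 6.24 CPM. The Vdac2-low libraries were the higher ones of their label in both labels, although libraries 6 and 8, labelled KO, exceeded library 5, labelled WT. The means of 7.78 ± 1.85 CPM and 5.76 ± 0.714 CPM (SD, n = 4 each) gave a log2 ratio of 0.43, with 0.29 within the label WT and 0.54 within the label KO. It was 0.28 without library 9 and 0.63 when scaled to the 4 cardiomyocyte markers. Unlike the Kv4 genes, *Kcna4* in library 3, at 6.82 CPM, lay within the range of the other libraries. The fibroblast markers *Dcn*, *Tcf21* and *Lum* were also higher in both labels, while *Col1a1* and *Pdgfra* were not. Their part in the level of *Kcna4* was not tested.

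*Kcnip2* (ENSMUSG00000025221, chromosome 19 from 45791839 to 45816061, minus strand) encodes KChIP2, the calcium-binding subunit that Kv4 pores need for full current. Its level in libraries 1, 5, 7 and 9 was 102.9, 116.8, 126.7 and 135.0 CPM, and in libraries 2, 4, 6 and 8 it was 117.9, 126.6, 147.1 and 142.6 CPM. The sets overlapped across labels but not within either one, where the log2 ratio was -0.15 both times. Means were 120.3 ± 13.8 CPM and 133.6 ± 13.6 CPM (SD, n = 4 each). Over all 8 libraries the ratio was -0.15, it was -0.082 without library 1, and scaled to the 4 cardiomyocyte markers it changed sign to 0.046. Library 3 held 5.15 CPM, 24.6-fold under the mean of the other 8.

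Within a library, *Kcna4* made up a larger share of the transient outward pore transcripts where *Vdac2* was low. Its share of the summed RPKM of *Kcnd2*, *Kcnd3* and *Kcna4* was 12.3%, 10.3%, 12.2% and 14.6% in libraries 1, 5, 7 and 9, and 7.57%, 7.23%, 9.03% and 7.46% in libraries 2, 4, 6 and 8. These sets did not overlap, and the share in library 3 was 43.8%. The other ratios within a library described here overlapped by *Vdac2* level. How often such ratios of other genes separate was not computed. The share of *Kcnd3* in the 2 Kv4 genes ran from 14.3% to 26.96% in the 8 libraries, with overlap, and was 51.2% in library 3. *Kcnip2* per summed *Kcnd2* and *Kcnd3* was between 2.92 and 3.17 in the Vdac2-low libraries and between 2.56 and 3.12 in the Vdac2-high libraries, and 0.817 in library 3. A ratio within a library shows unequal levels and does not show which gene differs.

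**Figure D3:**
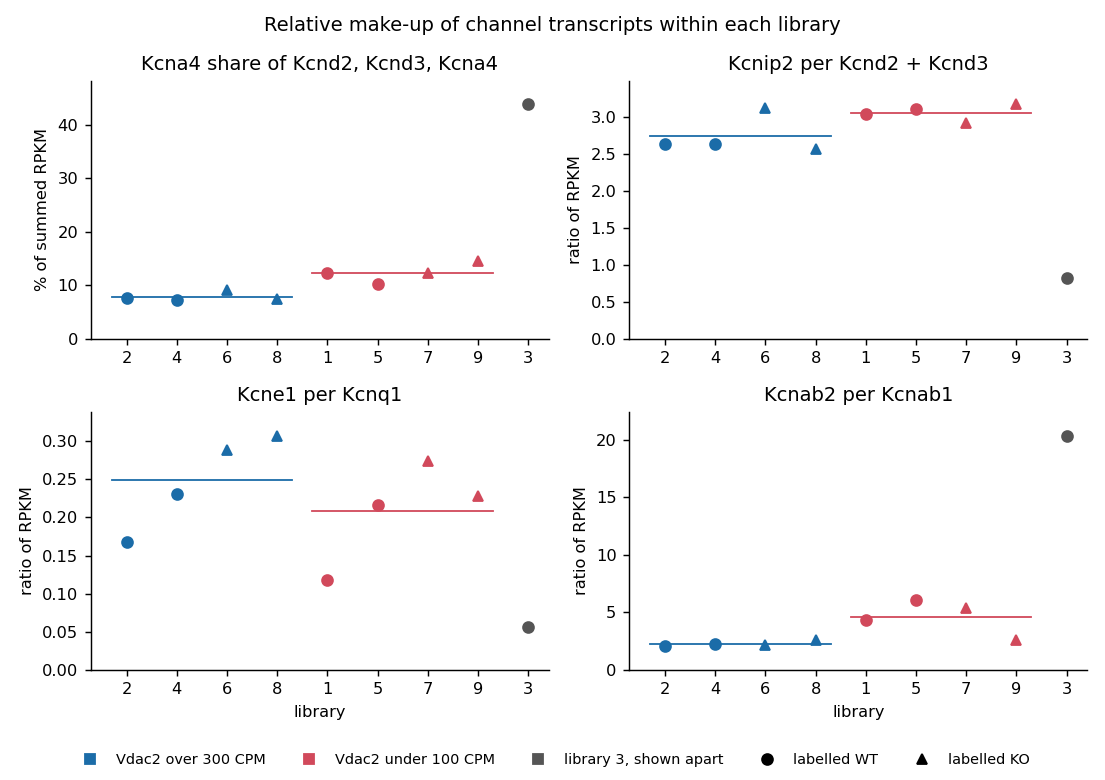
Ratios and shares of RPKM within each library (vertical axes from 0), by library (horizontal axis), for the pore and subunit pairs named in each panel, with lines at the mean of 4 libraries. The *Kcna4* share is 10.3% to 14.6% in the Vdac2-low and 7.23% to 9.03% in the Vdac2-high libraries, without overlap, and *Kcne1* per *Kcnq1* is 0.0559 in library 3. The ratios in the other panels overlap by *Vdac2* level.

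*Kcna5* (ENSMUSG00000045534, chromosome 6 from 126532551 to 126535412, minus strand) encodes Kv1.5, a pore of the rapidly activating, slowly inactivating current. It was measured at 14.2, 16.7, 13.1 and 11.3 CPM in libraries 1, 5, 7 and 9, and at 16.6, 16.7, 18.6 and 16.1 CPM in libraries 2, 4, 6 and 8. Only library 5 of the Vdac2-low libraries reached the range of the others. The log2 ratio was -0.30, with -0.11 within the label WT and -0.51 within the label KO, and -0.098 when scaled to the 4 cardiomyocyte markers. In library 3 *Kcna5* was at 4.91 CPM, 3.14-fold lower than the mean of the other 8.

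*Kcnv2* (ENSMUSG00000047298, chromosome 19 from 27322588 to 27337179, plus strand) encodes Kv8.2, a subunit that conducts no current alone and modifies the pores it joins. The Vdac2-low libraries 1, 5, 7 and 9 held 12.4, 12.4, 13.3 and 9.003 CPM, and libraries 2, 4, 6 and 8 held 23.9, 22.1, 20.5 and 25.9 CPM. Every Vdac2-low library was under every Vdac2-high library, in either label. The means, 11.8 ± 1.89 CPM and 23.1 ± 2.32 CPM (SD, n = 4 each), were 1.96-fold apart, a log2 ratio of -0.97 that was -0.89 within the label WT and -1.06 within the label KO. It lay at the 0.355th percentile of the log2 ratios of all tested genes. Scaled to the 4 cardiomyocyte markers the ratio was -0.77. In library 3 the level was 0.755 CPM, 23.1-fold under the mean of the other 8.

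*Kcnab1* and *Kcnab2* encode β subunits, cytoplasmic proteins of the aldo-keto reductase fold that bind Kv1 pores. *Kcnab1* (ENSMUSG00000027827, chromosome 3 from 65109384 to 65378223, plus strand) was low, with 1.12, 0.793, 0.738 and 1.39 CPM in libraries 1, 5, 7 and 9. It had 1.02, 1.06, 1.19 and 1.0 CPM in libraries 2, 4, 6 and 8. These values overlapped at a log2 ratio of -0.087, which turned to 0.012 without library 5, to 0.036 without library 7 and to 0.11 on the scale of the 4 cardiomyocyte markers. Library 3, at 0.944 CPM, lay among them.

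*Kcnab2* (ENSMUSG00000028931, chromosome 4 from 152390742 to 152477871, minus strand) differed in the direction opposite to *Kcnv2*. Libraries 1, 5, 7 and 9 held 3.15, 3.14, 2.58 and 2.31 CPM, and libraries 2, 4, 6 and 8 held 1.39, 1.52, 1.64 and 1.68 CPM. All 4 Vdac2-low libraries were above all 4 Vdac2-high libraries. Means of 2.80 ± 0.420 CPM and 1.56 ± 0.131 CPM (SD, n = 4 each) were 1.80-fold apart, and the log2 ratio of 0.84 was 1.11 within the label WT and 0.56 within the label KO. Scaled to the 4 cardiomyocyte markers it was 1.05. It stood at the 97.8th percentile of all tested genes. Library 3 held 12.5 CPM, 5.74-fold above the mean of the other 8. The macrophage markers named above were higher in the same libraries, and their part in the level of *Kcnab2* was not tested. The *Kcnab2* to *Kcnab1* ratio of RPKM was 4.35, 6.10, 5.39 and 2.57 in libraries 1, 5, 7 and 9 and 2.09, 2.20, 2.12 and 2.58 in libraries 2, 4, 6 and 8. Library 9 kept those sets from separating.

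*Kcne1* (ENSMUSG00000039639, chromosome 16 from 92345982 to 92359468, minus strand) encodes the small membrane subunit that slows *Kcnq1* channels to give the slow delayed rectifier. Its level was 3.09, 7.20, 9.02 and 7.71 CPM in libraries 1, 5, 7 and 9, and 4.75, 6.32, 9.84 and 9.47 CPM in libraries 2, 4, 6 and 8. By *Vdac2* level the sets overlapped, at a log2 ratio of -0.17 that turned to 0.070 without library 1 and to 0.028 on the scale of the 4 cardiomyocyte markers. By label they did not, since the libraries labelled KO held 7.71 to 9.84 CPM and no library labelled WT exceeded 7.20 CPM. Library 3 had 0.917 CPM, 7.82-fold under the other 8. *Kcnq1* itself was at 33.3 to 43.5 CPM in the 8 libraries. The *Kcne1* to *Kcnq1* ratio of RPKM was 0.118 to 0.231 in libraries 1, 2, 4 and 5, labelled WT, 0.228 to 0.307 in those labelled KO, and 0.0559 in library 3.

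Library 3 was below all other libraries for 6 of the 9 genes, above them for *Kcnab2*, and within their range for *Kcna4* and *Kcnab1*. Of all tested genes, 37.4% were below and 37.7% above the other 8 in this library, so a place outside their range is common there. The fold differences of the 6 ran from 2.74 (*Kcnd3*) to 24.6 (*Kcnip2*). Cardiomyocyte markers moved with them, *Myh6* being at 1747 CPM in library 3 against 15806 to 24713 CPM in the others. The 6 markers were lower by unequal amounts, from 1.43-fold for *Actc1* over 5.02-fold for *Myl2* and 6.39-fold for *Tnni3* to 11.0-fold for *Myh6*, so values scaled to them depend on which are taken. After scaling to *Tnnt2*, *Tnni3*, *Actc1* and *Ryr2*, *Kcnip2* was 7.79-fold lower, *Kcnv2* 7.22-fold, *Kcnd2* 3.61-fold and *Kcne1* 2.45-fold. On that scale *Kcna5* and *Kcnd3* differed from the mean of the others by log2 ratios of 0.0080 and 0.20, and *Kcna4*, *Kcnab1* and *Kcnab2* by 1.66, 1.52 and 4.14. Scaled to all 6 markers, an alternative added after the data were seen, the log2 ratios were -2.55 for *Kcnip2*, -2.44 for *Kcnv2*, -1.44 for *Kcnd2* and -0.88 for *Kcne1*. Scaled to *Myh6* alone, the marker that differed most, they were -1.18, -1.05, -0.071 and 0.49, and scaled to *Actc1* alone, the one that differed least, -4.12, -4.03, -3.01 and -2.44. With 1 library there is no replicate check of these values.

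**Figure D4:**
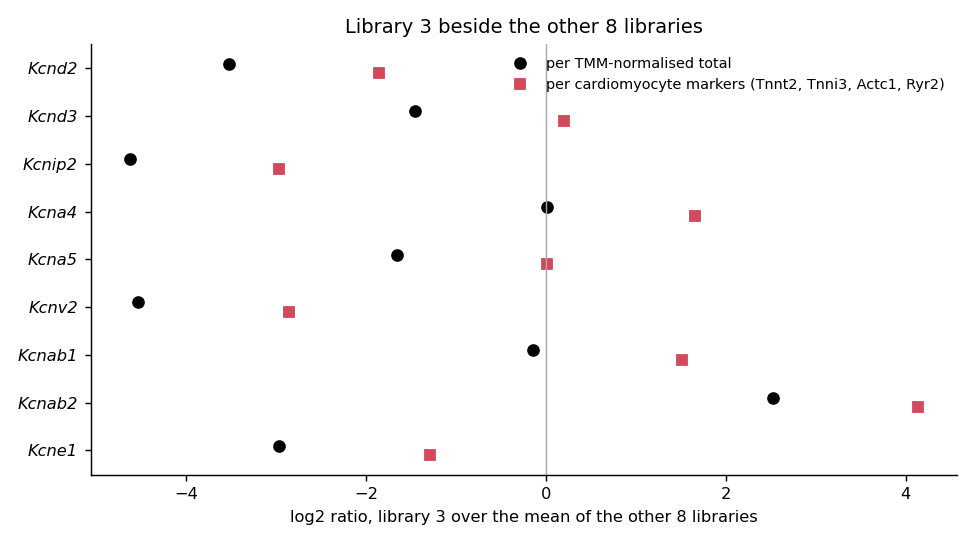
The log2 ratio of library 3 to the mean of the other 8 libraries (horizontal axis) for each gene, per TMM-normalised total (circles) and per 4 cardiomyocyte markers (squares). *Kcnip2*, *Kcnv2*, *Kcnd2* and *Kcne1* lie to the left of 0 on both of these scales, *Kcna5* and *Kcnd3* at 0.0080 and 0.20 on the marker scale.

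The labels were also compared as deposited. Since *Vdac2* went against the label in 5 of the 9 libraries, this comparison is of the labels and may not measure the knockout. 0 of the 9 genes passed edgeR's quasi-likelihood test at a Benjamini-Hochberg adjusted p under 0.05, where 0.0551% of all tested genes did. 0 of the 9 had an unadjusted p under 0.05 in edgeR with all 9 libraries, beside 6.11% of all tested genes. At an adjusted p under 0.05, DESeq2 and limma voom also called 0 of the 9. The lowest adjusted p of the edgeR test was 0.68. The median log2 fold change (KO over WT) was 0.26 for the 9 genes and -0.019 for all tested genes, with 7 of the 9 above 0. Without library 3, which is labelled WT, the median was 0.11 for the 9 genes and 0.0030 for all genes tested, with 5 of the 9 above 0. 2 genes, *Kcnip2* and *Kcne1*, were higher in every library labelled KO than in any labelled WT, a separation that 2.3% of all tested genes showed.

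The mean of *Kcne1* was 9.01 ± 0.929 CPM (SD, n = 4) for the label KO and 4.45 ± 2.52 CPM (SD, n = 5) for the label WT. Its log2 fold change, 1.02 ± 0.46 (standard error), had an edgeR adjusted p of 0.68. Without library 3 the change was 0.75 ± 0.22, with an edgeR adjusted p of 0.23. For *Kcnip2* the means were 137.8 ± 8.98 CPM and 93.9 ± 50.3 CPM, and the change of 0.55 ± 0.64 on the log2 scale (edgeR adjusted p = 0.76) became 0.24 without library 3. The 2 labels nearly met for *Kcnip2*, at 126.6 CPM in library 4 and 126.7 CPM in library 7. *Kcna4* averaged 7.81 ± 1.80 CPM and 5.94 ± 0.794 CPM, which gave 0.39 ± 0.18 on the log2 scale (edgeR adjusted p = 0.68) with all libraries, 0.44 without library 3 and 0.25 without library 9. *Kcnd2* gave 0.61 with and 0.31 without library 3, and *Kcnab2* gave -1.08 and -0.18. For *Kcna5* the log2 fold change was 0.10 and turned to -0.12 without library 3, and for *Kcnv2* it was 0.26 and turned to -0.054. *Kcnd3* stood at -0.062 and -0.28, and *Kcnab1* at 0.13 and 0.11. None of these differences exceeded the spread between libraries in the adjusted test, with all libraries or without library 3. The standard errors depended on that library and were smaller without it for every gene but *Kcnab1*. That of *Kcnip2* went from 0.64 to 0.079 and that of *Kcnd3* from 0.30 to 0.12. The edgeR adjusted p without library 3 was 0.28 for *Kcnip2*, 0.32 for *Kcna4* and 0.38 for *Kcnd3*. Unadjusted p were counted only with all libraries.

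**Figure D5:**
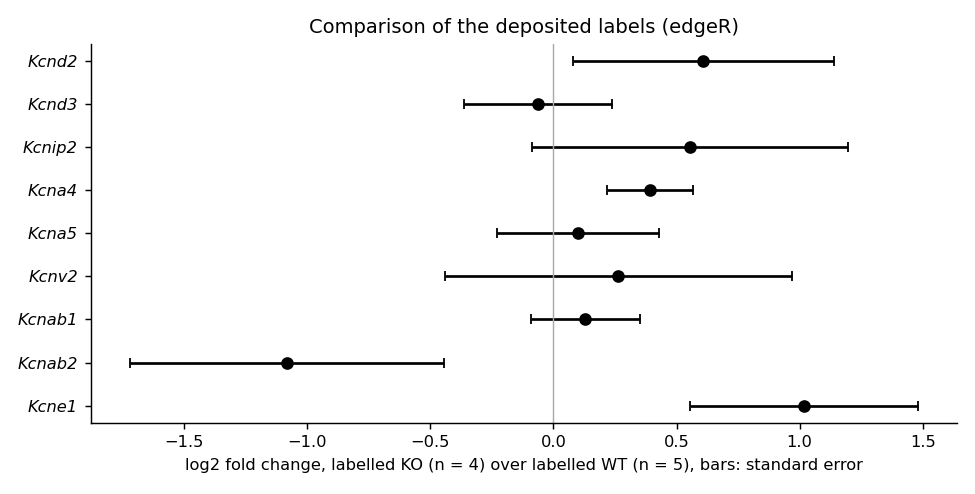
The log2 fold change of the libraries labelled KO (n = 4) over those labelled WT (n = 5) for each gene (horizontal axis), from edgeR with all 9 libraries, with bars of 1 standard error. *Kcne1* lies highest at 1.02 and *Kcnab2* lowest at -1.08, and no gene had an adjusted p under 0.05.

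A list of 45 further voltage-gated potassium channel genes held 18 that passed the filter on low counts and 27 that did not. Between labels edgeR, DESeq2 and limma voom each called 0 of the 18 at an adjusted p under 0.05. 2, *Kcng2* and *Kcne5* (annotated as *Kcne1l*), had an unadjusted p under 0.05 in edgeR, where 6.11% of all tested genes did, and the same 2 were higher in every library labelled KO than in any labelled WT, beside 2.3% of all tested genes. By *Vdac2* level 1 of the 18, *Kcnip1*, was lower without overlap, where 4.93% of all tested genes were, and 0 were higher, beside 7.16%. *Kcnip1* was at 0.0328, 0.214, 0.422 and 0.277 CPM in libraries 1, 5, 7 and 9 and at 0.457 to 0.853 CPM in the Vdac2-high libraries. Library 1 held 1 count of it, under the level read as detected. The median log2 ratio of the 18 was 0.041. Library 3 was below the other 8 for 10 of them and above for 4, where 37.4% and 37.7% of all tested genes were.

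Among the genes that carry related currents, *Kcng2*, which like *Kcnv2* encodes a subunit that conducts no current alone, was at 62.7, 66.5, 69.9 and 74.9 CPM in libraries 5, 1, 7 and 9. It stood at 64.2 to 77.1 CPM in the Vdac2-high libraries, so its levels overlapped where those of *Kcnv2* did not. *Kcnh2*, the pore of the rapid delayed rectifier, was at 37.7 to 44.2 CPM and 31.7 to 48.4 CPM. *Kcne4*, a small membrane subunit that inhibits several Kv pores, was at 2.24 to 4.04 CPM and 1.90 to 3.11 CPM, and at 18.6 CPM in library 3. *Kcne2* had 0 counts in every library.

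*Irx3*, *Irx4* and *Irx5* encode Iroquois transcription factors of the ventricle, and *Irx5* is known for setting the gradient of *Kcnd2* across the ventricular wall. *Irx5* was at 6.73, 5.55, 7.36 and 8.10 CPM in libraries 1, 5, 7 and 9 and at 5.49, 5.25, 6.18 and 5.36 CPM in libraries 2, 4, 6 and 8. The sets overlapped across the 8 libraries, at a log2 ratio of 0.32. It was higher in the Vdac2-low libraries of each label, as 11.3% of all tested genes were, while *Irx3* (0.18) and *Irx4* (-0.12) did not separate in this way. Between labels *Irx3* differed by 0.60 ± 0.22 (standard error) on the log2 scale, with an edgeR adjusted p of 0.68.

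The genes closest in pattern were found by the root mean square difference of mean-centred log2(CPM + 0.5) over the 9 libraries. For *Kcnd2* they were *Slc36a2* (0.136), *Adhfe1* (0.154) and *Rnf207* (0.158), where the median of all tested genes was 1.09. For *Kcna5* they were *Kcnk3* (0.084), *Pik3r1* (0.0848) and *Ogdh* (0.0859), with a median of 0.549. *Armc2* (0.18), *Adra1a* (0.222) and *Scn4a* (0.243) lay closest to *Kcnv2*, with a median of 1.28. *Kcnab2* was added after its values were seen, and *Arl11* (0.121), *Vav1* (0.126) and *Ifi30* (0.132) lay closest to it, with a median of 0.826. Library 3 and the library totals are shared by all points of these patterns.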

How the data were processed

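Total RNA of the left ventricle was depleted of ribosomal RNA and sequenced by the authors as stranded libraries with 50-base single-end reads. Reads were aligned to GRCm38. The submitters' processing notes name STAR 2.7.2c, featureCounts 1.6.3 and DESeq2. The strand setting of the counting is not given in the sources used here. The deposited values are raw counts per Ensembl gene, without normalization, for 52636 genes and 9 libraries. 52489 identifiers were annotated in GENCODE M21.

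Libraries were grouped by the deposited labels (5 WT, 4 KO). 1 WT sample was said to have been removed for RNA quality but is not named, so all 9 were used. edgeR 4.0.16 (R 4.3.3) with filterByExpr, TMM and the robust quasi-likelihood F test compared the labels, with Benjamini-Hochberg adjustment over 16322 genes. DESeq2 1.42.0, limma 3.58.1 (voom with library quality weights), other scalings and filters, and each library left out in turn were alternatives. CPM are counts scaled to a TMM-normalized total of 1e+06, and RPKM divide them by the union of exon lengths. Libraries of low and high *Vdac2* were described by ratios of mean CPM and by overlap, without a test. The fit was tested on simulated data. The 9 genes, the 45 other channel genes, the markers and the libraries set side by side were chosen with earlier results of these data known. The genes named are the 9, *Vdac2*, list genes over 1 CPM that bear on the same currents, and the 3 genes closest in pattern to *Kcnd2*, *Kcna5* and *Kcnv2*. Genes named outside this rule (*Kcne5*, *Kcnip1*, *Kcne2* and those closest to *Kcnab2*) were chosen after their values were seen. 1 gene of the list of channel genes is not reported here.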

Additional observations from a re-analysis of the deposited data

Results flagged for a closer look

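In library 3, labelled WT, 5 of the 9 genes lay far below the other 4 libraries of the label by Dixon's criterion for a single distant value, applied to log2 CPM. *Kcnd2* was at 4.56 CPM, with a gap to the next library of 0.834 of the range of the label on the log2 scale. *Kcnd3* was at 8.90 CPM (0.857), *Kcnip2* at 5.15 CPM (0.935), *Kcna5* at 4.91 CPM (0.863) and *Kcnv2* at 0.755 CPM (0.81). On CPM itself *Kcnd3* (0.775), *Kcnip2* (0.805) and *Kcna5* (0.781) met the criterion, *Kcnd2* (0.63) and *Kcnv2* (0.503) did not, and *Kcnab2* met it above the other libraries (0.841), so the genes depend on the scale. 18 groups were examined, 9 genes in each label, and chance alone gives such a gap in 5% of groups. All 5 came from 1 library, and in that library 37.4% of all tested genes were below the other 8, so the 5 are not independent.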

How the results depend on the processing

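Between labels, no alternative run called any of the 9 genes or of the other channel genes at an adjusted p under 0.05, with adjusted p for the 9 genes from 0.158 (*Kcne1*) to 0.999 (*Kcnv2*). Counting genes whose labelled libraries do not overlap, chosen after seeing the data, gave 2 of the 9. Over all genes, 9 were called, against 0 with at least 10 counts in every library, 70 with DESeq2, 77 with library quality weights and 5 to 62 with a library left out, the 62 without library 3. Log2 fold changes changed sign with a library left out for *Kcnd3* (-0.28 to 0.042), *Kcna5* (-0.12 to 0.21), *Kcnv2* (-0.054 to 0.53) and *Kcnab1* (-0.014 to 0.28). For *Kcnd3* these were the fits without library 2 (0.0063), 4 (0.037) or 9 (0.042), for *Kcna5* those without 3 (-0.12) or 6 (-0.030), for *Kcnv2* those without 3 (-0.054) or 8 (-0.0035), and for *Kcnab1* that without 9 (-0.014). *Kcna5* also did so with quality weights (-0.051). By *Vdac2* level, 2 of the 9 genes did not overlap, against 6 within the label WT (where 23.3% of all tested genes were lower and 24.5% higher), 7 within the label KO (17.1% and 20.7%), 5 in both labels (chosen after seeing the data) and 2 to 4 with a library left out, the 4 without library 5, where 15.9% of all tested genes did not overlap, against 12.1% with all 8 libraries. For the other channel genes 1 did not overlap, against 1 to 3 with a library left out (2 without library 1 or 4, beside 15.2% and 15.9% of all tested genes, and 3 without library 9, beside 17.8%). In library 3, some scalings to markers, chosen after seeing the data, reversed 3 genes that lay outside the range of the others. The log2 ratio of *Kcnd3* turned to 0.20 with 4 markers, 0.60 with 6 and 1.98 with *Myh6* alone, that of *Kcna5* to 0.0080, 0.42 and 1.79, and that of *Kcne1* to 0.49 with *Myh6* alone. With *Actc1* alone they kept their sign, at -0.97, -1.16 and -2.44. *Kcnab1*, within that range, turned from -0.14 to 0.37 (*Actc1*) and up to 3.28 (*Myh6*). Sets of 2 libraries overlap less often than sets of 4 by construction. The cause of the other changes was not tested. No paired analysis was possible because the labels name no litter or pair of animals. Depth limits genes of few counts, such as *Kcnip1* with 1 count in library 1.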
